A study of Mirounga angustirostris with 8 samples.

Results

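The genes ADIPOQ, LEP, CFD, PLIN1, CIDEC, CIDEA, FABP4, PCK1 and PPARG mark adipocytes, the cells that store fat. They were taken by symbol from a table of reads counted per gene in *longissimus dorsi* muscle, the long muscle of the back. All 9 symbols were present among the 24349 entries of the table, and 8 of them were among the 14312 genes that passed a filter on low counts and were tested. LEP did not pass.

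The muscle came from adult female northern elephant seals (NES), a species that stays ashore without food while it molts. Post-molt biopsies were taken before the return to sea, a mean of 34 days after the first biopsy over all the seals of the study, from seals 4448, 5572, 9678 and X410. Pre-molt biopsies, labelled early molt, were taken at most 5 days after arrival on the beach, from seals 5572, 5842, 6762 and C497. Each group had 4 libraries, and only seal 5572 was sequenced at both times. The comparison was therefore unpaired, and time ashore, fasting, reduced activity and molt stage cannot be told apart. The authors kept these libraries because they had the most unique reads of each condition, after low quality RNA gave poor sequencing in others.

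White adipocytes store triglyceride in a large lipid droplet coated by perilipins and CIDE proteins, and release hormones such as adiponectin and leptin. PPARG is the nuclear receptor that drives their differentiation and many of their genes. Muscle also holds fat cells between its fibers, which can form from fibro-adipogenic progenitors, while muscle fibers and capillary cells have lipid-handling genes of their own. Per the paper, the cannula that took the biopsy kept for RNA reached the muscle through the blubber. Carry-over of blubber into the samples was not tested. In bulk samples such as these, fewer cells of a type and less RNA per cell cannot be told apart.

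The libraries held 30769570 to 61216192 counts post-molt and 37897904 to 56137977 counts pre-molt. Levels are CPM, the reads of a gene per 1000000 reads of a library after its size was scaled with a TMM factor, and fold changes are post-molt over pre-molt from the quasi-likelihood test of edgeR with its standard error (SE) and a p-value adjusted over all 14312 genes. Myofiber genes were abundant in every library. MB (myoglobin) averaged 110535 ± 17564 CPM post-molt and 69243 ± 18795 CPM pre-molt, ACTA1 (skeletal actin) 45185 ± 9792 CPM post-molt and 85956 ± 22329 CPM pre-molt, and CKM (muscle creatine kinase) 23301 ± 2656 CPM post-molt and 36352 ± 12410 CPM pre-molt (SD, n = 4 each). Libraries differed in how many tested genes had no read at all, from 3 to 2116 post-molt and from 56 to 1119 pre-molt, with the most in post-molt 9678 (2116), post-molt 4448 (1327) and pre-molt 5842 (1119). The adipocyte genes are given with and without those 3 libraries.

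Among the adipocyte genes, CIDEC showed the clearest difference between the groups, with every post-molt library below every pre-molt library. No adipocyte gene passed an adjusted p of 0.05 in edgeR, where 50 of all 14312 genes did (0.349%, 31 higher and 19 lower post-molt; 40 higher and 10 lower on raw library totals). CIDEC was also the only one of the 8 tested genes with an unadjusted p under 0.05, against 11.4% of all genes. In DESeq2, the tool of the study, CIDEC passed and was 1 of the 4 adipocyte genes given an adjusted p, against 6.63% of the 9034 genes given one. CIDEC was 1 of 8 whose libraries did not overlap between groups, against 9.16% of all genes. Of the 8 fold changes, 6 were negative and 2 were positive, with a median of -0.89 on the log2 scale, against -0.04 over all genes tested. All 8 were more variable than the median gene between libraries of a group. Their dispersion, the variance beyond counting noise, was above that of 52.3% (FABP4) to 97.7% (PPARG) of all tested genes, and of 56.9% for CIDEC. On simulated data of this size the test missed most changes of the most variable genes, so a gene that did not pass is not shown to be unchanged.

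**Figure D1:**
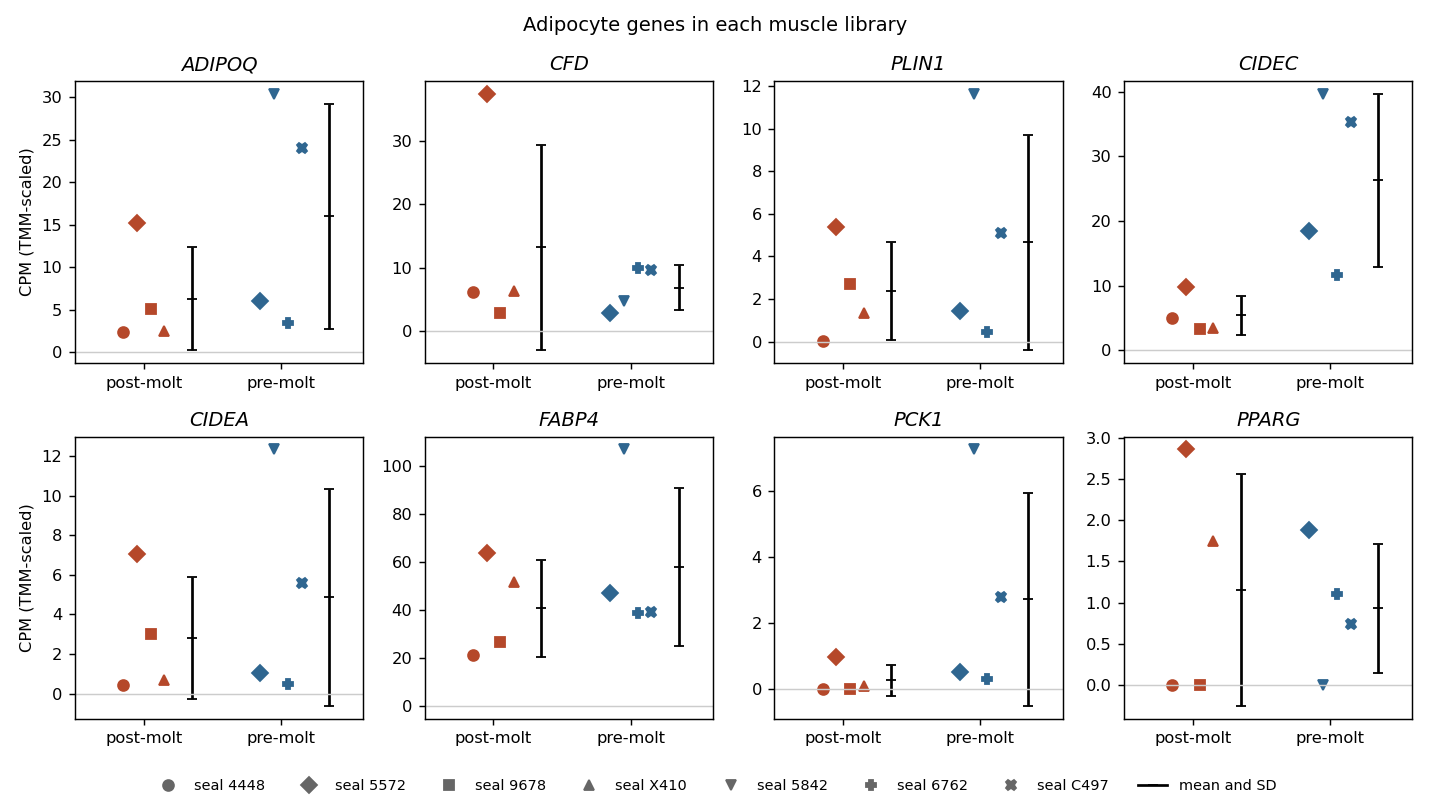
Level of each tested adipocyte gene in each library, in TMM-scaled CPM on a linear axis with its own scale for each gene, with post-molt libraries left (red) and pre-molt libraries right (blue). Symbols mark seals and black bars the mean and SD of 4 libraries; CIDEC is the only gene whose groups do not overlap, with at most 9.78 CPM post-molt and at least 11.6 CPM pre-molt.

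ADIPOQ encodes adiponectin, a hormone made almost solely by adipocytes. It had 2.37, 15.2, 5.03 and 2.54 CPM in post-molt 4448, 5572, 9678 and X410, against 6.02, 30.4, 3.47 and 24.0 CPM in pre-molt 5572, 5842, 6762 and C497. The pre-molt libraries fell into a high pair (5842 and C497) and a low pair, and the low pair lay among the post-molt values. The group means were 6.27 ± 6.05 CPM post-molt and 16.0 ± 13.3 CPM pre-molt (SD, n = 4 each), a log2 fold change of -1.35 ± 0.72 (SE) that did not pass (edgeR adjusted p = 0.541, 95% interval -2.92 to 0.21).

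LEP encodes leptin, the other main adipocyte hormone, and was close to undetected. It had 2 reads in post-molt 5572 and 0 in each of the other libraries. A count of 0 allows a level of up to 0.0430 to 0.0968 CPM in post-molt 4448, 9678 and X410 and up to 0.0504 to 0.0941 CPM in the pre-molt libraries, taking 3 reads as the limit and counting error only, so a difference was not detectable at this depth. In the 3 libraries with the most genes at 0, this limit need not hold.

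CFD encodes adipsin, the serine protease that starts the alternative pathway of complement and is released by fat cells. Its levels were 6.21, 37.5, 2.81 and 6.36 CPM in post-molt 4448, 5572, 9678 and X410, against 2.90, 4.74, 9.97 and 9.64 CPM in pre-molt 5572, 5842, 6762 and C497. Post-molt 5572 stood far above every other library, and the remaining post-molt values lay within the pre-molt range or just under it. Its log2 fold change was 0.95 ± 0.69 (edgeR adjusted p = 0.693), and without post-molt 5572 it was -0.40 (adjusted p = 0.879).

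PLIN1 encodes perilipin 1, the coat protein of the adipocyte lipid droplet that controls access of lipases. It had 0.0143, 5.39, 2.71 and 1.33 CPM in post-molt 4448, 5572, 9678 and X410, against 1.43, 11.6, 0.462 and 5.11 CPM in pre-molt 5572, 5842, 6762 and C497. The value in post-molt 4448 rests on 1 read, and both groups ran from low to high with broad overlap. The log2 fold change of -0.98 ± 1.15 did not pass (edgeR adjusted p = 0.847), and it was 0.014 without pre-molt 5842.

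CIDEC, also called FSP27 in the mouse, lies at contacts between lipid droplets and lets small droplets merge into large ones. It had 4.97, 9.78, 3.36 and 3.43 CPM in post-molt 4448, 5572, 9678 and X410, from 347, 352, 104 and 173 reads. It had 18.5, 39.7, 11.6 and 35.3 CPM in pre-molt 5572, 5842, 6762 and C497, from 778, 1265, 628 and 2104 reads. Pre-molt 5842 and C497 were again the highest, but here even the lowest pre-molt library, 6762, was above post-molt 5572. The means were 5.38 ± 3.02 CPM post-molt and 26.3 ± 13.4 CPM pre-molt (SD, n = 4 each), and the fitted level post-molt was 0.205 of that pre-molt. This was a log2 fold change of -2.29 ± 0.45 (95% interval -3.27 to -1.31, unadjusted p = 0.000254) with an adjusted p of 0.0542 in edgeR and 0.000109 in DESeq2, so whether CIDEC passed depended on the tool. Its fold change kept its sign in each of 19 alternative fits, between -2.88 and -1.72, with adjusted p from 0.000109 to 0.561. The weakest of these fits left out the 3 libraries with the most genes at 0, which leaves 2 post-molt and 3 pre-molt libraries. The adjusted p was below 0.05 in edgeR without post-molt 5572 (0.0479) or without pre-molt 6762 (0.0368), and between 0.0878 and 0.144 without any other single library.

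CIDEA is the relative of CIDEC best known from brown and beige fat of the mouse. It had 0.459, 7.05, 3.03 and 0.694 CPM in post-molt 4448, 5572, 9678 and X410, against 1.07, 12.3, 0.480 and 5.59 CPM in pre-molt 5572, 5842, 6762 and C497. Its order over the 8 libraries was identical to that of PLIN1 (Spearman rho of 1, n = 8 libraries). Its log2 fold change of -0.79 ± 1.01 did not pass (edgeR adjusted p = 0.858), and it was 0.23 without pre-molt 5842.

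FABP4 encodes a fatty acid carrier of adipocytes that capillary endothelium and macrophages also make. Its levels were 21.2, 63.8, 26.5 and 51.6 CPM in post-molt 4448, 5572, 9678 and X410, against 47.0, 107, 38.7 and 39.4 CPM in pre-molt 5572, 5842, 6762 and C497. It varied less between libraries than the other adipocyte genes detected in all of them, 5.04-fold from lowest to highest, against 11.8-fold for CIDEC and 12.9-fold for ADIPOQ. On the log2 scale the fold change was -0.51 ± 0.40 (edgeR adjusted p = 0.721), and -0.011 without pre-molt 5842.

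PCK1 encodes the cytosolic form of phosphoenolpyruvate carboxykinase, which fat cells use to make glycerol for triglyceride. It had 0, 0.972, 0 and 0.0793 CPM in post-molt 4448, 5572, 9678 and X410, against 0.523, 7.24, 0.296 and 2.79 CPM in pre-molt 5572, 5842, 6762 and C497. The post-molt libraries held 39 reads in all and the pre-molt libraries 435, with 231 of them in 5842 and 166 in C497. The log2 fold change of -3.37 ± 1.68 was the largest in size of the 8 and the second least precise, and it did not pass (edgeR adjusted p = 0.490, 95% interval -7.01 to 0.27).

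PPARG had 0, 2.86, 0 and 1.74 CPM in post-molt 4448, 5572, 9678 and X410, against 1.88, 0, 1.11 and 0.739 CPM in pre-molt 5572, 5842, 6762 and C497. The libraries without a read were the same 3 that had the most genes at 0, while each other library had 44 to 103 reads. In all, 8 genes of the table were at 0 in those 3 libraries with at least 40 reads in each other one. Pre-molt 5842, the highest library for 6 of the 8 adipocyte genes, was thus at 0 for PPARG. For PPARG the log2 fold change was 0.30 ± 1.80 (edgeR adjusted p = 0.975), and 0.90 without the 3 libraries.

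Without those 3 libraries, a choice made after seeing the data, the log2 fold changes of the other adipocyte genes were -0.33 for ADIPOQ, 1.55 for CFD, 0.53 for PLIN1, -1.72 for CIDEC, 0.70 for CIDEA, 0.47 for FABP4 and -1.20 for PCK1. The median of the 8 was 0.50, with 5 positive and 3 negative. PLIN1, CIDEA and FABP4 thus turned direction, and none of the 8 passed in edgeR (adjusted p of 0.561 for CIDEC and higher for the rest). Pre-molt 5842 was the highest library for 6 of the 8 genes, and post-molt 4448 was the lowest or tied lowest for 6. For most of these genes, leaving both out therefore moves the fold change upward.

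**Figure D2:**
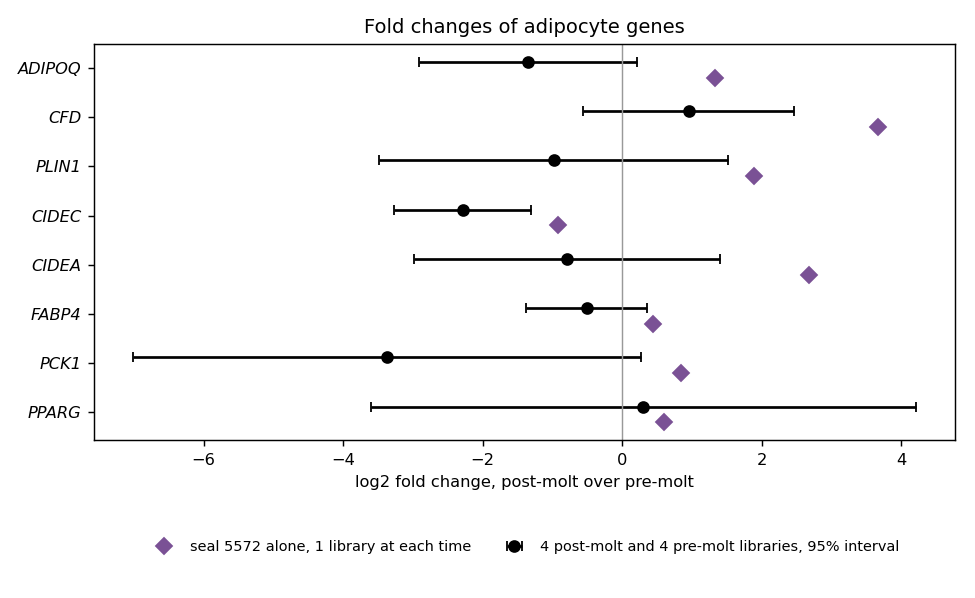
Log2 fold change of each tested adipocyte gene, post-molt over pre-molt, with its 95% interval from the edgeR fit over 8 libraries (black), and the log2 ratio within seal 5572 from 1 library at each time (purple). The interval of CIDEC, -3.27 to -1.31, is the only one that leaves out 0, and CIDEC is the only gene below 0 in seal 5572.

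Seal 5572 gave the only view of 1 animal at both times, without a replicate and therefore without a test. Its post-molt library was above its pre-molt library in 7 of the 8 tested genes. The ratio of post-molt to pre-molt CPM was 12.9 for CFD, 6.59 for CIDEA, 3.78 for PLIN1 and 2.52 for ADIPOQ, and it lay between 1.36 and 1.86 for FABP4, PPARG and PCK1. CIDEC alone went the other way, at 0.528. For ADIPOQ, PLIN1, CIDEA, FABP4 and PCK1 the sign within this seal was therefore opposite to that of the group comparison. Without both libraries of seal 5572, the log2 fold changes were -2.56 for ADIPOQ, -2.11 for PLIN1, -2.88 for CIDEC, -2.16 for CIDEA and -6.88 for PCK1, and none passed in edgeR (adjusted p between 0.116 for CIDEC and 0.762 for PLIN1).

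The summed CPM of all 9 genes was 35.2, 143, 43.4 and 67.7 in post-molt 4448, 5572, 9678 and X410, against 79.3, 213, 66.1 and 123 in pre-molt 5572, 5842, 6762 and C497. The means were 72.3 ± 48.9 CPM post-molt and 120 ± 66.4 CPM pre-molt (SD, n = 4 each), a ratio of 0.601 with overlapping groups. The ratio was 0.506 without FABP4, the most abundant of the 9. It was 0.364 without both libraries of seal 5572, 0.406 without post-molt 5572 alone, 0.809 without pre-molt 5842, and 1.18 without the 3 libraries with the most genes at 0. The ratio thus depended on which libraries were kept, and its direction turned only when those 3 were left out. They hold the highest pre-molt sum (213 in 5842) and the lowest post-molt sums (35.2 in 4448 and 43.4 in 9678). Leaving them out could therefore only raise the ratio.

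CIDEC was also set against 5 of the other adipocyte genes within each library. Per read of FABP4, CIDEC had 0.0665 to 0.234 reads post-molt and 0.300 to 0.897 reads pre-molt, without overlap. Per read of ADIPOQ it had 0.645 to 2.10 reads post-molt and 1.30 to 3.34 reads pre-molt, and here the groups overlapped. Its ratios to PLIN1, CIDEA and PCK1 overlapped between groups as well, and 2 post-molt libraries had no PCK1 read to divide by.

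The adipocyte genes varied together over libraries to different degrees, described here by Pearson's r of log2 CPM over the 8 libraries, which share their sampling times and the differences in genes at 0. With ADIPOQ, r was 0.93 for CIDEA, 0.89 for PCK1, 0.82 for PLIN1 and 0.81 for CIDEC, whereas the median over all 14311 other tested genes was 0.02 and 1.18% were above 0.8. It was 0.66 for FABP4, 0.26 for CFD and -0.02 for PPARG. Without pre-molt 5842, over 7 libraries, it was 0.90 for CIDEA, 0.84 for PCK1, 0.76 for PLIN1, 0.72 for CIDEC and 0.43 for FABP4. After each group's mean was removed, r with ADIPOQ was 0.98 for CIDEA, 0.90 for CIDEC, 0.90 for PCK1 and 0.81 for PLIN1. CIDEC and PCK1 had an r of 0.93 with each other, above that of either with PLIN1 (0.51 for CIDEC and 0.72 for PCK1).

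The genes outside the panel with the pattern most like ADIPOQ were TMPO (r = 0.98), ADIRF (0.97), TAP2 (0.96), C3 (0.96), CD14 (0.95) and TNFSF13 (0.95). ADIRF is named as an adipogenesis regulatory factor and C3 is the complement component cleaved in the pathway that CFD starts. TMPO is a protein of the nuclear lamina, TAP2 a peptide transporter of antigen presentation, CD14 a co-receptor for bacterial lipopolysaccharide and TNFSF13 a cytokine of the tumor necrosis factor family. ADIRF had 1.39, 7.80, 2.26 and 1.80 CPM in post-molt 4448, 5572, 9678 and X410, against 2.83, 25.1, 1.24 and 10.2 CPM in pre-molt 5572, 5842, 6762 and C497. TMPO followed the same order as ADIPOQ within a much narrower range, 13.8 to 16.7 CPM post-molt and 14.4 to 19.4 CPM pre-molt. None of these 6 genes passed in edgeR (adjusted p of 0.531 to 0.891), and 2 of them were also among the 6 closest by Spearman's rho. When each library was left out in turn, 2 to 5 of the 6 were still among the 6 closest.

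**Figure D3:**
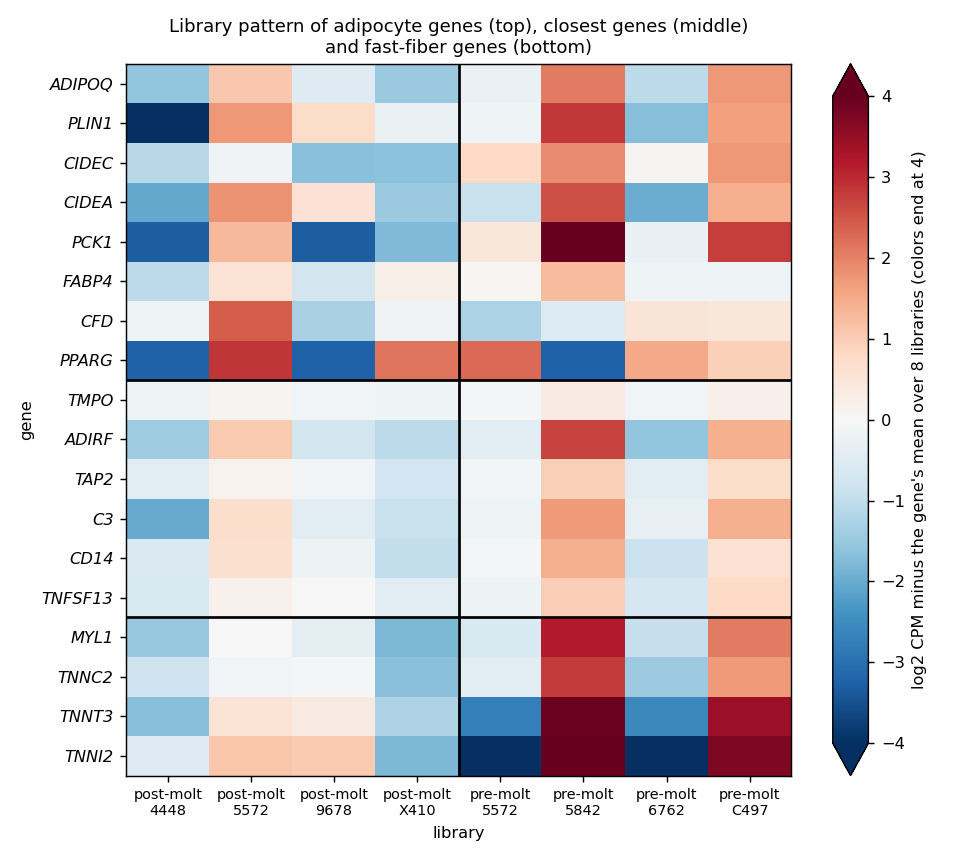
Log2 CPM of each gene minus its mean over 8 libraries (color, ending at 4 in both directions) for the adipocyte genes, the 6 genes most like ADIPOQ and 4 fast-fiber genes, with post-molt libraries left of the line and pre-molt libraries right of it. Pre-molt 5842 and C497 are above the mean in most rows, and the low values of PPARG are in the 3 libraries with the most genes at 0.

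Some genes of other cell types followed ADIPOQ over the same libraries. MYL1, an essential light chain of fast muscle fibers, had 2273 CPM in pre-molt 5842 and 1052 CPM in C497, against 131 to 163 CPM in the other pre-molt libraries and 72.7 to 252 CPM post-molt, and its r with ADIPOQ was 0.94. The fast troponins TNNC2, TNNT3 and TNNI2, picked after their values were seen, had r of 0.91, 0.86 and 0.77. Without pre-molt 5842 the r was 0.93 for MYL1, 0.87 for TNNC2, 0.79 for TNNT3 and 0.66 for TNNI2. The myofiber list as a whole did not share this pattern, since its 18 tested genes had a median r of 0.33, with -0.29 for MB, -0.21 for ACTN2 and 0.05 for ACTN3, the actinin of fast fibers. Over the 13 markers of fibroblasts and fibro-adipogenic progenitors, 12 had a negative log2 fold change with a median of -0.60, where 53.5% of all genes were negative. None passed in edgeR, and 6 were lower with an unadjusted p below 0.05, against 11.4% of all genes in either direction. In DESeq2, 3 were lower, against 6.63% of the genes given an adjusted p. The summed level of the 13 was 1118 to 1324 CPM post-molt and 1000 to 2398 CPM pre-molt. It was highest in pre-molt 5842, while the other pre-molt libraries had at most 1318 CPM. Without the 3 libraries with the most genes at 0, 8 of the 13 were negative and the median was -0.04. The part of fiber type and of progenitor cells in the adipocyte values was not tested.

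PI16, a marker of adventitial fibroblasts, had 1.75 to 6.52 CPM post-molt and 10.3 to 27.3 CPM pre-molt, a log2 fold change of -2.04 ± 0.45 (edgeR adjusted p = 0.0679). LUM, the matrix proteoglycan lumican, had 8.42 to 40.2 CPM post-molt and 53.6 to 67.0 CPM pre-molt (-1.60 ± 0.40, edgeR adjusted p = 0.0955), and COL1A1, a chain of type I collagen, 27.1 to 55.4 CPM post-molt and 66.7 to 345 CPM pre-molt (-1.82 ± 0.49, edgeR adjusted p = 0.123). In these 3, the smallest p of the list, the groups did not overlap, as in 9.16% of all genes, and none passed in edgeR with all 8 libraries. LUM passed in edgeR without post-molt X410 (-2.20, adjusted p = 0.0160), PI16 and LUM passed in DESeq2 and limma-voom, and all 3 passed with no filter on low counts. DESeq2 gave COL1A1 no p, and besides PI16 and LUM it called COL1A2 lower (adjusted p = 0.00789). Without pre-molt 5842 the log2 fold change of COL1A1 was -0.89. Without the 3 libraries with the most genes at 0 the values were -1.73 for PI16, -0.95 for LUM and -0.88 for COL1A1, and none passed in edgeR (adjusted p of 0.249 to 0.602).

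The remaining marker lists showed no gene past edgeR's threshold. At an unadjusted p under 0.05 they held 1 endothelial gene (lower) and 8 myofiber genes (1 higher and 7 lower), against 11.4% of all genes. DESeq2 called 1 endothelial gene lower and 3 myofiber genes (1 higher and 2 lower), against 6.63% of the genes it gave an adjusted p. Of the 13 capillary endothelial markers 6 were positive and 7 negative, with summed levels of 607 to 693 CPM post-molt and 626 to 800 CPM pre-molt. KDR, a receptor for vascular endothelial growth factor, was the endothelial gene with the smallest p, at 5.26 to 13.3 CPM post-molt and 17.9 to 31.5 CPM pre-molt (log2 fold change -1.45 ± 0.34, edgeR adjusted p = 0.0807). Of 11 macrophage markers 9 were in the table (not CD163 and C1QC) and 7 were tested, and the 9 summed to 23.6 to 47.7 CPM post-molt and 20.5 to 73.1 CPM pre-molt, with the highest value in pre-molt 5842. Of 12 skin epithelium markers 9 were in the table, without the keratins KRT14 and KRT1 and without FLG, and these 9 summed to 5.00 to 10.1 CPM post-molt and 4.61 to 12.3 CPM pre-molt, with KRT10 and KRT15 at 0 in every library and 2 genes tested. Pericyte and smooth muscle markers (9 tested, median log2 fold change 0.00) and blood cell markers (5 tested, 0.43) likewise had no called gene, and for myofiber markers 14 of 18 tested genes were negative with a median of -0.62.

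The other genes named for their p in these marker lists all had an edgeR adjusted p above that of KDR. The log2 fold changes were -0.54 for C1QA, 2.15 for CD68 and -1.77 for MRC1 of macrophages, and 0.57 for FLT1 and 0.41 for TEK of endothelium. They were 0.26 for MCAM, -0.76 for MYH11 and 0.22 for NOTCH3 of pericytes and smooth muscle, -2.45 for PERP and 0.26 for TP63 of skin, and 1.24 for ALAS2, 0.76 for PTPRC and 0.43 for S100A9 of blood. Of these, C1QA, MRC1, MYH11, PERP, ALAS2, PTPRC and S100A9 turned direction in at least 1 alternative fit.

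Further genes of white adipocytes did not share one direction. Of 21 such genes 12 were tested, 5 with a positive and 7 with a negative log2 fold change, with a median of -0.03. None passed in edgeR, and 4 had an unadjusted p under 0.05, 2 in each direction, against 11.4% of all genes. In DESeq2, 1 was higher and 2 lower, against 6.63% of the genes given an adjusted p. NNAT, neuronatin, had 0.807 to 3.33 CPM post-molt and 5.08 to 24.3 CPM pre-molt (log2 fold change -2.62 ± 0.62, edgeR adjusted p = 0.0830, DESeq2 0.00127). GPAM, the mitochondrial acyltransferase that begins glycerolipid synthesis, had 26.1 to 34.2 CPM post-molt and 42.8 to 79.1 CPM pre-molt (-0.91 ± 0.23, edgeR adjusted p = 0.0923, DESeq2 0.00788). The 2 higher genes were PLIN4 (0.79 ± 0.27, edgeR adjusted p = 0.250, DESeq2 0.0528) and AGPAT2 (0.47 ± 0.17, edgeR adjusted p = 0.286, DESeq2 0.0364), which are also in lists below. SLC7A10 and ADIG, both fat cell genes of the mouse, were at 0 in every library. Of 13 brown and beige fat genes 7 were tested and none passed in edgeR (1 at an unadjusted p below 0.05) or DESeq2, and UCP1, the uncoupling protein that defines brown fat, was at 0 in all 8 libraries. The smallest p of these were those of ZIC1 (log2 fold change 0.85), PPARGC1A (0.54) and DIO2 (2.21).

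Transcription factors of adipogenesis other than PPARG mostly had positive fold changes. Of 15 tested factors, 11 had a positive and 4 a negative log2 fold change with a median of 0.61. None passed in edgeR, while 7 were higher and 2 lower with an unadjusted p below 0.05, against 11.4% of all genes. In DESeq2, 5 were higher, against 6.63% of the genes given an adjusted p. CEBPA, EBF1 and KLF5 were given no DESeq2 adjusted p. The 4 negative factors were DLK1 (-2.25 ± 0.88, edgeR adjusted p = 0.321), CEBPA (-2.16 ± 1.68, 0.719), PPARD (-0.94 ± 0.33, 0.249) and PPARA (-0.18 ± 0.23, 0.860). CEBPA averaged 0.525 CPM post-molt and 2.34 CPM pre-molt. Its r with ADIPOQ was 0.85, where the median of the list was -0.42. ZBTB16, a zinc finger factor, had 35.7 to 119 CPM post-molt and 14.7 to 30.1 CPM pre-molt (1.81 ± 0.37, edgeR adjusted p = 0.0546, DESeq2 0.000122). RXRA, the partner with which PPARG binds DNA, had 347 to 401 CPM post-molt and 196 to 291 CPM pre-molt (0.69 ± 0.19, edgeR adjusted p = 0.142, DESeq2 0.00246). CEBPD, an early factor of fat cell formation, had 23.4 to 109 CPM post-molt and 15.3 to 21.1 CPM pre-molt (1.49 ± 0.41, edgeR adjusted p = 0.134, DESeq2 0.00901). The highest CEBPD level was that of post-molt 4448, and the log2 fold change was 0.80 without that library.

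Among genes that make triglyceride, LPIN1 was higher post-molt and was the only gene of all the lists past the threshold in edgeR, by a narrow margin. It encodes lipin 1, the phosphatase that forms diacylglycerol and also acts as a coactivator. It had 112, 109, 147 and 143 CPM in post-molt 4448, 5572, 9678 and X410, against 58.7, 52.9, 75.2 and 39.4 CPM in pre-molt 5572, 5842, 6762 and C497. The log2 fold change was 1.18 ± 0.22 (edgeR adjusted p = 0.0486, DESeq2 3.81e-05). In edgeR the adjusted p was above 0.05 on leaving out any 1 library except pre-molt 6762 (0.0750 to 0.109). Of 19 alternative fits LPIN1 passed in 7 and not in 12. The 12 include upper-quartile scaling and a stricter filter, both with all libraries kept. Without the 3 libraries with the most genes at 0 the log2 fold change was 1.13 (edgeR adjusted p = 0.422). Over the 15 tested genes of this list 6 were positive and 9 negative, with a median of -0.21. At an unadjusted p under 0.05, 2 were higher and 1 lower, against 11.4% of all genes in either direction. DESeq2 also called 2 higher and 1 lower, against 6.63% of the genes given an adjusted p. The lower gene was GPAM (-0.91 ± 0.23, edgeR adjusted p = 0.0923, DESeq2 0.00788), with every post-molt library below every pre-molt library. AGPAT2, an acyltransferase of the same route, was at 0.47 (edgeR adjusted p = 0.286, DESeq2 0.0364).

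Of the 12 tested genes of lipolysis and the lipid droplet, 10 had a positive log2 fold change, with a median of 0.36. None passed in edgeR, and 4 were higher with an unadjusted p below 0.05, against 11.4% of all genes in either direction. In DESeq2, 2 genes of the list were higher, against 6.63% of the genes given an adjusted p. PNPLA2, the lipase that takes the first fatty acid from triglyceride, had 251 to 894 CPM post-molt and 161 to 236 CPM pre-molt (1.43 ± 0.32, edgeR adjusted p = 0.0717, DESeq2 0.000259). PLIN3, a perilipin found in most tissues, had 67.7 to 108 CPM post-molt and 40.1 to 61.3 CPM pre-molt (0.92 ± 0.21, edgeR adjusted p = 0.0800, DESeq2 0.00319). PLIN4, another perilipin, had 150 to 395 CPM post-molt and 135 to 187 CPM pre-molt (0.79 ± 0.27, edgeR adjusted p = 0.250, DESeq2 0.0528).

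**Figure D4:**
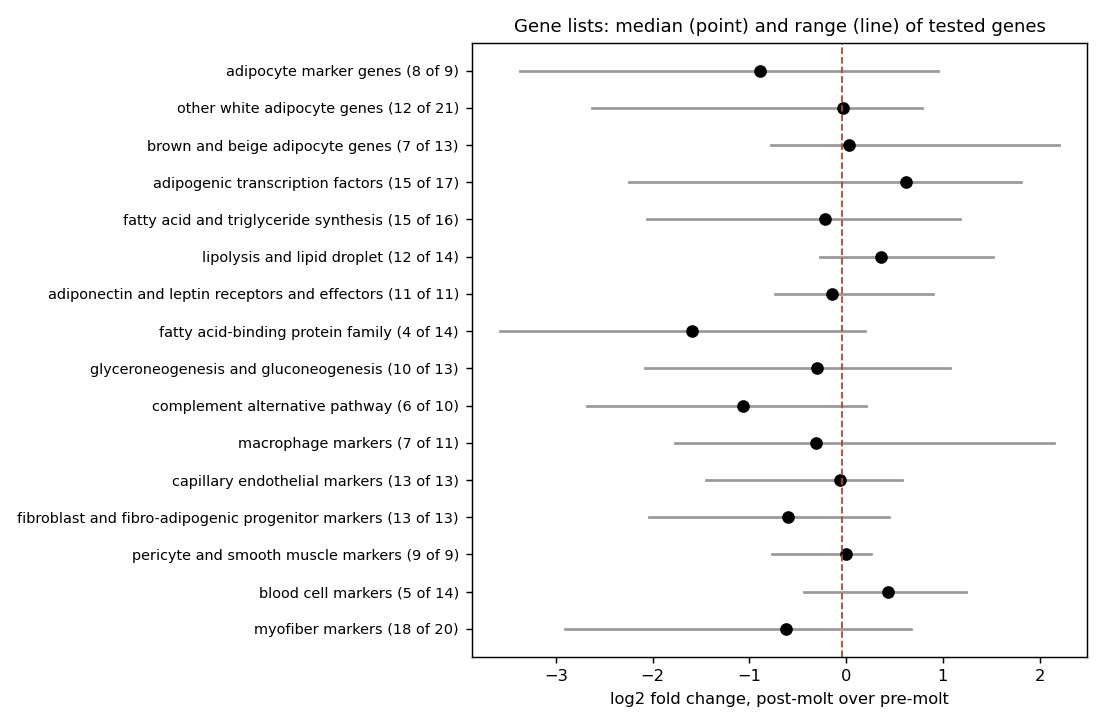
Median (point) and range (line) of the log2 fold change, post-molt over pre-molt, over the tested genes of each list, with the number tested of the number listed beside its name; the skin list, with 2 tested genes, is left out. The dashed line is the median over all genes tested, -0.04, and the adipocyte marker genes have a median of -0.89 with a range of -3.37 to 0.95.

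The genes that receive or pass on the adipocyte hormones were all tested, with 5 of 11 positive and 6 negative and a median of -0.14. None passed in edgeR, and 3 had an unadjusted p under 0.05, all higher, against 11.4% of all genes in either direction. In DESeq2, 2 were higher, against 6.63% of the genes given an adjusted p. APPL1, an adaptor of the adiponectin receptors, had 75.1 to 117 CPM post-molt and 37.6 to 83.2 CPM pre-molt (0.90 ± 0.27, edgeR adjusted p = 0.180, DESeq2 0.0270). ADIPOR2, one of those receptors, had 67.3 to 164 CPM post-molt and 35.9 to 122 CPM pre-molt (0.88 ± 0.38, edgeR adjusted p = 0.385). JAK2, the kinase bound to the leptin receptor, had 54.6 to 76.7 CPM post-molt and 23.7 to 50.9 CPM pre-molt (0.84 ± 0.25, edgeR adjusted p = 0.174, DESeq2 0.0419).

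Most tested relatives of FABP4, CFD and PCK1 had negative fold changes, as did 53.5% of all genes tested, and none passed in edgeR. FABP3, the carrier of heart and muscle fibers, had 446 to 857 CPM post-molt and 637 to 2132 CPM pre-molt (-0.82 ± 0.35, edgeR adjusted p = 0.390). In its family 4 of 14 genes were tested, with none called in edgeR or DESeq2 (1 had an unadjusted p under 0.05). CRABP2, 1 of the 4, was at -3.58 ± 1.96 (edgeR adjusted p = 0.553), from 9 reads post-molt and 123 reads pre-molt. Of 6 tested genes of the alternative complement pathway 5 were negative. C3 was at -1.29 ± 0.68 (edgeR adjusted p = 0.531). CFB was at -2.68 ± 2.15 (edgeR adjusted p = 0.732), from 13 reads post-molt and 128 reads pre-molt. Of 10 tested genes of glycerol and glucose synthesis 8 were negative. DESeq2 called FBP2 lower (adjusted p = 0.00841) and AQP3 higher (adjusted p = 0.0474), against 6.63% of the genes it gave an adjusted p. FBP2, the fructose bisphosphatase of muscle, had 211 to 355 CPM post-molt and 362 to 1103 CPM pre-molt (-1.12 ± 0.31, edgeR adjusted p = 0.148). GPD1 was at -0.78 ± 0.43 on the log2 scale. AQP3, a channel for water and glycerol, had 12.7 to 28.7 CPM post-molt and 7.28 to 13.0 CPM pre-molt (1.07 ± 0.32, edgeR adjusted p = 0.179).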

How the data were processed

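Poly-A RNA of 8 biopsies was sequenced in pairs of short reads, and per the paper and labels the authors used bcl2fastq 2.20 for base calls and STAR for alignment and counting per gene, on the genome of the Hawaiian monk seal. The deposited values are raw counts per gene. Which strand column was taken is not given in the sources used here, so overlapping antisense genes cannot be told apart, and reads of 1 seal species are counted on another's genes, which can lower the counts of diverged genes. The labels name a TruSeq kit and the paper an NEBNext kit. The authors' own test used DESeq2 1.18.1 in R 3.4.3.

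From the counts, 11 entries that name no gene (0.0173 to 0.0259% of a library) were dropped. Genes were kept with filterByExpr (minimum count 10, minimum total 15) and tested with edgeR 4.0.16 in R 4.3.3 (TMM factors, quasi-likelihood test, Benjamini-Hochberg adjustment, threshold 0.05). DESeq2 1.42.0 and limma-voom (limma 3.58.1) were alternatives, as were other scalings, filters and left-out libraries. The test was checked on simulated data: it returned the simulated fold changes and called nearly all large changes of genes with low spread, but it missed many of variable genes, so a first requirement set over all genes was not met and was replaced by one at low spread. SEs were taken as the log2 fold change over the root of F. Log2 CPM for likeness used a prior count of 2. No pair of libraries looked like copies (lowest chi-square per degree of freedom 99.7 over 28 pairs). P-values cover the spread between seals sampled here.

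Named genes are the 9 adipocyte genes, the 3 tested genes with the smallest p of each list, the 6 genes with a symbol most like ADIPOQ, and the 3 most abundant myofiber markers. Some genes that this rule names are not reported here. The genes, the 16 other lists and the tests were chosen with earlier results of these data known.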

Additional observations from a re-analysis of the deposited data

Results flagged for a closer look

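In each group of 4 libraries, the gap between an extreme library and its nearest neighbor was compared with the group's whole range for the 8 tested adipocyte genes, 16 groups in all. For independent groups of normally spread values chance alone marks about 1 group in 20, and here 3 were marked. These groups share libraries and their CPM are skewed, so the 3 cannot be set against that rate. FABP4 in pre-molt 5842 was 107 CPM, far above the other pre-molt libraries. CFD in post-molt 5572 was 37.5 CPM, far above the other post-molt libraries. PCK1 in post-molt 5572 was 0.972 CPM, where the other post-molt libraries had at most 0.0793 CPM.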

How the results depend on the processing

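No paired analysis was possible because only seal 5572 had a library at both times. Over 151 alternative values for the 8 tested adipocyte genes, 133 kept both direction and side of the threshold, 5 passed it (all CIDEC: no filter, DESeq2, robust edgeR, and without pre-molt 6762 or post-molt 5572) and 13 turned direction, none past the threshold. For 51 other named genes 902 of 960 values kept both. Of the rest, 32 passed the threshold, 12 no longer passed it (all LPIN1) and 14 turned direction.

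The turned log2 fold changes were, without pre-molt 5842, 0.014 for PLIN1, 0.23 for CIDEA, -0.087 for PPARG and 0.45 for C1QA. Without post-molt 5572 they were -0.66 for PPARG, -0.40 for CFD and -1.08 for S100A9, and without post-molt 4448 -0.0098 for ALAS2. Without both libraries of seal 5572 they were -0.077 for PPARG, -0.65 for CFD, -0.28 for PTPRC and -1.39 for S100A9. Without the least uniquely mapped library of each group (post-molt 9678, pre-molt 5842) they were 0.19 for CIDEA, 0.15 for FABP4, 0.75 for C1QA and 0.35 for PERP. In limma-voom they were -1.85 for PPARG and 0.093 for C1QA. Without the 3 libraries with the most genes at 0, an alternative chosen after seeing the data, they were 0.53 for PLIN1, 0.70 for CIDEA, 0.47 for FABP4, 0.77 for C1QA, 0.57 for MRC1, 0.33 for MYH11, 0.90 for PERP, 0.016 for ADIRF and 0.055 for CD14, and the ratio of summed levels was 1.18 in place of 0.601. With 1 library left out, the range was -1.81 to 0.014 for PLIN1, -1.83 to 0.23 for CIDEA, -0.66 to 0.90 for PPARG, -0.40 to 1.29 for CFD, -0.82 to 0.45 for C1QA, -0.0098 to 7.55 for ALAS2 and -1.08 to 0.98 for S100A9. The cause of these turns was not tested.

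Genes called higher and lower post-molt numbered 31 and 19 in edgeR, 297 and 302 in DESeq2, 128 and 97 with no filter, 55 and 39 in limma-voom, 43 and 31 in robust edgeR, and 40 and 10 on raw library totals, which moved the median log2 fold change of all genes to 0.10. They numbered 3 and 2 without seal 5572 and 0 and 0 without the least uniquely mapped libraries or the 3 with the most genes at 0. Leaving out 1 library gave 7 to 28 higher and 2 to 21 lower. Adipocyte genes called lower were 0 in edgeR and 1 with no filter, in DESeq2 and in robust edgeR, and 0 to 1 with a library left out. By Spearman's rho 2 of the 6 genes most like ADIPOQ remained, and 2 to 5 with a library left out, a check also chosen after seeing the data, as was leaving libraries out of the summed ratio (0.406 to 0.809), the single r values and the list medians. LEP, PCK1 and PPARG each had libraries at 0 reads. The limit of 3 reads covers counting error only, so it need not bound a level in the 3 libraries with the most genes at 0. For each of these genes the libraries at 0 include post-molt 4448, 1 of those 3 and the deepest library (61216192 counts).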
